A study of Mus musculus with 6 samples.

Results

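The genes followed here belong to the cells that line blood vessels, and they were compared between tumors of the duodenum and of the cecum. They encode PECAM1, VE-cadherin, the VEGF and angiopoietin receptors, von Willebrand factor and other endothelial surface proteins. The members were Pecam1, Cdh5, Kdr, Flt1, Tek, Tie1, Eng, Vwf, Cd34 and Nrp1. A probe set, which is a group of short probes read as 1 value, belonged to them when the platform annotation gave it exactly 1 gene name and that name was on the list. This gave 16 probe sets for all 10 genes, of 22626 probe sets on the array that were not controls and 12393 named genes. The rule reads gene names and no measured value, though the list was drawn up with earlier results of these data known.

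The samples were 3 duodenal tumors and 3 cecal tumors of mice, each on its own Affymetrix array. The sample titles do not give the number of mice or say whether a duodenal and a cecal tumor shared a mouse. All the mice carried Apc1638N, a mutant allele of the Apc tumor suppressor that predisposes to intestinal tumors, and all were Rb1-deficient, where Rb1 encodes the retinoblastoma protein. Neither the way Rb1 was inactivated nor the age of the mice is given in the sources used here, and tissue of the pylorus, the outlet of the stomach, could be part of the duodenal samples. No normal tissue was analysed here, so every comparison is one between tumors of the 2 sites. The values are MAS5 intensities on a linear scale, with array medians of 164.4 to 181.8, and 3 arrays a site limit the precision of each.

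VEGF family ligands from the surrounding tissue act on the receptor tyrosine kinases KDR (VEGFR2), which drives endothelial growth and permeability, and FLT1 (VEGFR1), which binds the same ligand tightly and can act as a decoy. Neuropilin-1 is a co-receptor for VEGF and for class 3 semaphorins, and angiopoietins act on TEK (TIE2) beside its relative TIE1 to stabilise vessels. Endothelial cells hold together through VE-cadherin and PECAM1, store von Willebrand factor for release on injury, and carry the TGF-beta co-receptor endoglin and the sialomucin CD34.

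None of the 10 genes passed the test for a difference between sites. The test took in probe sets that exceeded the 40th percentile of the array, an intensity of 92.36 to 100.6, on 3 or more arrays, and 10 member probe sets of 8 genes met this. Each gene is represented by its brightest tested probe set. With limma on log2(intensity + 16), adjusted over 13866 probe sets at a threshold of 0.05, 0 of 8 member genes were called, where 10.4% of all 8129 tested genes were. By probe set, 0 of 10 were called, where 9.3% of all tested were. At an unadjusted p under 0.05 the count was 2 of 8, Vwf and Cd34, against 24.9% of all tested genes. Array weights called 1 member (Cd34, adjusted p = 0.0269), and the fit without cecal tumor 3 called 1 (Vwf, adjusted p = 0.0435). Among the 8 tested genes 7 had a positive cecal minus duodenal difference, against 43.5% of all tested genes. Of these 7, Cdh5 and Flt1 changed sign under some alternative settings of the fit. The median log2 difference of the 8 genes was 0.18, against a median of -0.05 over all tested genes. The median absolute log2 difference was 0.23 for the 8 genes and 0.21 for all. Array values come from whole tumor, so fewer endothelial cells and less RNA per cell cannot be told apart.

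**Figure D1:**
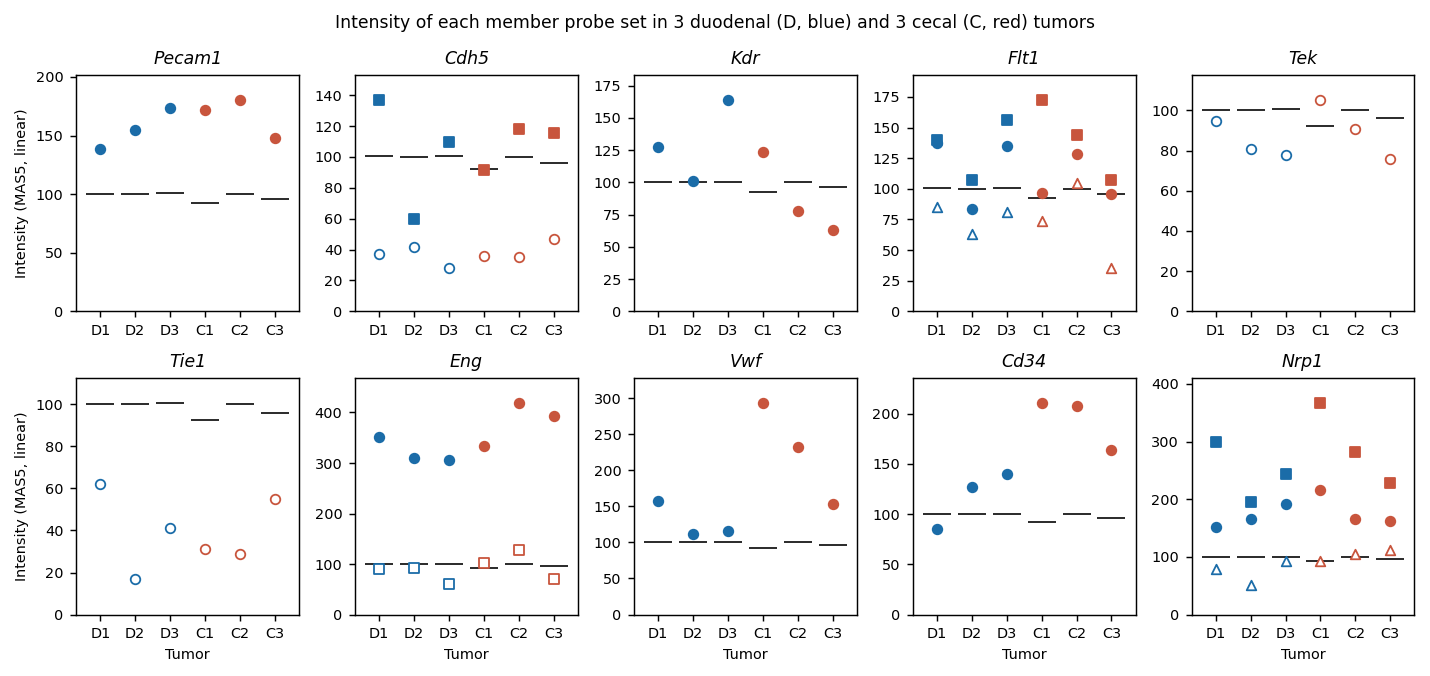
Linear MAS5 intensity (vertical axes start at 0) of all 16 member probe sets in duodenal tumors 1 to 3 (D, blue) and cecal tumors 1 to 3 (C, red), with 1 panel per gene and 1 symbol shape per probe set. Filled symbols were tested and open ones were not, and the short black bars are each array's 40th percentile; Cd34 is the panel in which the sites do not overlap, and Tie1 lies below the bars on every array.

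Many of these genes were close to the dim end of the array. Across the 16 probe sets, the mean intensity lay between the 24.4th and 63.5th percentile of all probe sets. The 40th percentile was exceeded on all 6 arrays by 6 probe sets, on 4 or 5 arrays by 4, on 1 or 2 arrays by 4, and on none by 2. The angiopoietin receptor gene Tek and its relative Tie1 were in the dim part and had no tested probe set. Tek gave 94.5, 80.8 and 77.8 in duodenal tumors 1 to 3 and 105.2, 90.8 and 76.0 in cecal tumors 1 to 3, above the percentile only in cecal tumor 1. Tie1 gave 61.9, 16.7 and 41.1 in duodenal tumors and 31.4, 28.9 and 54.9 in cecal ones, at or under it throughout. The ranges of the sites overlapped for both genes. Without the filter on dim probe sets, Tek had a log2 difference of 0.08 (limma adjusted p = 0.886) and Tie1 one of 0.02 (adjusted p = 0.989).

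Among the VEGF receptors, Kdr was the tested member with a negative difference. Its intensities were 127.1, 100.8 and 164.0 in duodenal tumors and 123.8, 77.9 and 63.2 in cecal ones. Cecal tumors 2 and 3 lay under every duodenal value, while cecal tumor 1 lay within the duodenal range. The means were 131 ± 31.7 for the duodenal and 88.3 ± 31.6 for the cecal site (SD, n = 3 each), a log2 difference of -0.51 ± 0.27 (SE; limma adjusted p = 0.304). The 95% interval, which is not adjusted for the number of probe sets, ran from a 0.458-fold to a 1.08-fold cecal level. In cecal tumors 2 and 3 Kdr was also under the array's 40th percentile, so its level there is close to the dim end.

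The promoter of Kdr is shown because this gene had the negative difference, beside those of Cd34 and Eng, chosen after their values were seen: Cd34 is the member whose sites did not overlap, and Eng the member still tested under a filter at the 60th percentile. The RefSeq promoter set used here covered 7 of the 10 genes (build GRCm38.p6). The 250 bases before the start of the gene were searched on both strands. The searched letters were AGGAAG, bound by ETS family factors. Sites of the GATA family were searched as TGATAA. Capitals mark matches to either.
Kdr: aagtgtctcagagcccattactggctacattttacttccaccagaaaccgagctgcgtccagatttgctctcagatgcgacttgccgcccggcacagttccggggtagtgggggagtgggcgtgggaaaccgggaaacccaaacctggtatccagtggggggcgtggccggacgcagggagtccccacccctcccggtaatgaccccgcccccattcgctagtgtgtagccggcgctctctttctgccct
Cd34: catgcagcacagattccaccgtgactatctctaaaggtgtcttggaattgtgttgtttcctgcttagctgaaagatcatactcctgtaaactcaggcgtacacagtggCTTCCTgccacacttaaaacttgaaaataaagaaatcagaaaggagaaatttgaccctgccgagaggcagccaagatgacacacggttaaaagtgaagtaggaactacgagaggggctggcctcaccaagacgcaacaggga
Eng: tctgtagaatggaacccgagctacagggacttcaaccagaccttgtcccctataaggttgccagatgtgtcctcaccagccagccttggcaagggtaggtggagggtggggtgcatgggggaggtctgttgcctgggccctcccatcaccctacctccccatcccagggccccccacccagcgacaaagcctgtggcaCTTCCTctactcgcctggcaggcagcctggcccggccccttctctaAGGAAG
They lie at chr5:75978456-75978705 on the minus strand (Kdr), chr1:194938571-194938820 on the plus strand (Cd34) and chr2:32646345-32646594 on the plus strand (Eng). AGGAAG or its reverse complement CTTCCT was in 5 of the 7 promoters, with 1 match for Cd34, 2 for Eng and 0 for Kdr, and in 29.5% of 32851 promoter windows of the same length. TGATAA was in 0 of the 7 and in 7.94% of all windows. A match describes these letters in this window and is not evidence of binding.

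Flt1 was read by 3 probe sets, 2 of them tested. The representative gave 140.1, 107.1 and 155.9 in duodenal tumors and 172.6, 143.6 and 107.1 in cecal ones, with means of 134 ± 24.9 and 141 ± 32.8 (SD, n = 3 each). Lowest values of the sites were the same and the ranges overlapped (log2 difference 0.06 ± 0.22 SE, limma adjusted p = 0.914). The second tested Flt1 probe set gave 137.3, 83.6 and 134.7 against 96.8, 128.5 and 96.2, with a log2 difference of -0.11 (adjusted p = 0.827). Its sign opposed that of the first, and neither passed. The untested Flt1 probe set ran from 35.2 to 105.1, both values in cecal tumors.

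Nrp1, the neuropilin co-receptor, was also read by 3 probe sets. Its representative gave 298.5, 194.5 and 242.9 in duodenal tumors and 366.6, 282.1 and 227.3 in cecal ones (log2 difference 0.23 ± 0.22 SE, limma adjusted p = 0.588). Cecal tumor 1 was the highest and duodenal tumor 2 the lowest, and the other 4 values interleaved. A second Nrp1 probe set had a log2 difference of 0.09 (adjusted p = 0.824) with values of 151 to 191.4 in duodenal tumors and 161.5 to 216 in cecal tumors. The third Nrp1 probe set was not tested, with 78.4, 51.5 and 93.4 in duodenal tumors and 92.2, 105.6 and 111.9 in cecal ones.

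The TGF-beta co-receptor Eng had the smallest standard error of the tested members. It gave 351.6, 309.1 and 306.3 in duodenal tumors and 333.6, 418.6 and 392.8 in cecal ones. Cecal tumors 2 and 3 were above every duodenal value, and cecal tumor 1 was below duodenal tumor 1. The means were 322 ± 25.4 and 382 ± 43.6 (SD, n = 3 each), a log2 difference of 0.23 ± 0.14 (SE; limma adjusted p = 0.396), with a 95% interval of 0.932-fold to 1.48-fold. A second Eng probe set, not tested, gave 90.2, 91.2 and 60.2 in duodenal tumors and 101.2, 127.8 and 70.6 in cecal ones.

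The junction genes gave small differences. Pecam1, an adhesion molecule of endothelial cells, platelets and leukocytes, had 138.4, 155.1 and 173.8 in duodenal tumors and 172.2, 180.4 and 148.2 in cecal ones. Cecal tumor 2 was above every duodenal value, and the other cecal values lay within the duodenal range. The log2 difference was 0.09 ± 0.17 (SE; limma adjusted p = 0.796), with an interval of 0.818-fold to 1.39-fold. Cdh5, which encodes VE-cadherin, gave 136.9, 59.9 and 109.5 in duodenal tumors and 91.6, 117.8 and 115.6 in cecal ones. Duodenal tumors held both its highest and its lowest value, and the log2 difference was 0.13 ± 0.28 (SE; adjusted p = 0.836). Without duodenal tumor 2, which held the low value, the sign turned (log2 difference -0.16, adjusted p = 0.722). The other Cdh5 probe set stayed between 27.9 and 47.1, under the 40th percentile on every array.

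Vwf and Cd34 had the largest differences among the members, both toward cecal tumors, and neither passed. Vwf, the clotting glycoprotein stored by endothelial cells and platelets, gave 157.9, 112.3 and 115.6 in duodenal tumors and 293.2, 232.7 and 152.6 in cecal ones. Cecal tumors 1 and 2 were above every duodenal value, and cecal tumor 3 was below duodenal tumor 1. The means were 129 ± 25.4 and 226 ± 70.5 (SD, n = 3 each), and the log2 difference was 0.71 ± 0.25 (SE; limma adjusted p = 0.126, unadjusted p = 0.0204). This is a fold of 1.64 with a 95% interval of 1.10 to 2.44. The adjusted p ran from 0.0435 to 0.333 over 15 alternatives, and was 0.0551 with the replicate number as a block.

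Platelet markers are given here because platelets also carry Vwf. Their list had 4 of 5 genes on the array. Its summed intensity was 343.1 to 526.1 in duodenal tumors and 647.4 to 804.8 in cecal tumors, without overlap. Of all tested genes, 31.3% had sites that did not overlap. Of 2 tested members 1 was higher in cecal tumors: Pf4, platelet factor 4, gave 219.5, 259.9 and 378.5 in duodenal tumors and 457.5, 564.7 and 475.7 in cecal ones (log2 difference 0.80, limma adjusted p = 0.0478). Pf4 made up most of the summed intensity on every array. The call of Pf4 was lost under 7 of 16 alternatives, among them every single array left out except duodenal tumor 3 (adjusted p up to 0.175). Itga2b, a platelet integrin chain, had a log2 difference of 0.34 (adjusted p = 0.529). Gp9, part of the platelet receptor for von Willebrand factor, was under the 40th percentile on every array (13.7 to 35.8), and Ppbp, a platelet chemokine, was above it in cecal tumors 2 and 3. The part of platelets in the Vwf values was not tested.

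Cd34, a sialomucin of small vessels that fibroblasts and mast cells of the mouse also carry, gave 84.9, 126.7 and 139.7 in duodenal tumors and 210.6, 207.9 and 163.6 in cecal ones. Every cecal value was above every duodenal one; of all tested genes 31.3% had sites that did not overlap, and of the 8 members 1 did. The means were 117 ± 28.6 and 194 ± 26.4 (SD, n = 3 each), a log2 difference of 0.67 ± 0.21 (SE; limma adjusted p = 0.0948, unadjusted p = 0.0130). This is a fold of 1.60, with a 95% interval of 1.14 to 2.24. The adjusted p ran from 0.0269 to 0.257 over 15 alternatives and was 0.108 with the replicate number as a block.

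Fibroblast markers are given here because fibroblasts also carry Cd34. All 6 genes of that list were on the array and tested, all 6 had a positive difference (median log2 difference 0.38), and the summed intensity was 11461.5 to 14730.5 in duodenal tumors and 16006.2 to 20331.0 in cecal tumors. Col3a1, a fibrillar collagen, was the 1 member that passed by its brightest probe set (log2 difference 0.73, limma adjusted p = 0.0173; up to 0.0708 with single arrays left out, where every array except duodenal tumor 3 ended the call). Col1a1 had a log2 difference of 0.85 (adjusted p = 0.0736; 0.0101 when blocked by replicate number), and its second probe set passed (0.71, adjusted p = 0.0316). Dcn and Col1a2, the other bright members, had log2 differences of 0.22 (adjusted p = 0.546) and 0.55 (adjusted p = 0.0955), and the second Col1a2 probe set passed (0.70, adjusted p = 0.0377). Mast cell genes had a summed intensity of 1820.9 to 8506.9 in duodenal tumors and 2009.6 to 6215.5 in cecal tumors, and 0 of 4 tested passed in limma (0 at an unadjusted p under 0.05). The part of fibroblasts and mast cells in the Cd34 values was not tested.

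**Figure D2:**
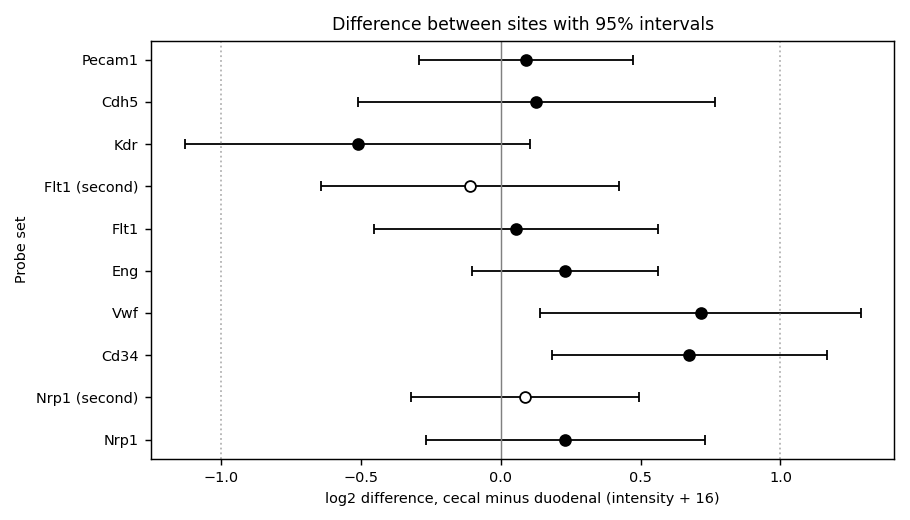
Difference between sites in log2(intensity + 16), cecal minus duodenal, for the 10 tested member probe sets, with bars for the unadjusted 95% limma interval (n = 3 tumors a site). Filled points are the 8 representatives and open points second probe sets, and dotted lines mark 2-fold; the intervals of Vwf and Cd34 lie above 0 and reach past 2-fold.

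The intervals bound the differences only on the scale of the test, the log2 of intensity with its offset. For 5 of the 8 genes (Pecam1, Cdh5, Flt1, Eng and Nrp1) the unadjusted 95% interval excluded a 2-fold difference in both directions. For Kdr, Vwf and Cd34 it included one. The offset understates changes of dim genes. Excluding 2-fold on this scale therefore does not exclude a 2-fold difference in RNA. Standard errors of the 8 log2 differences ran from 0.14 (Eng) to 0.28 (Cdh5).

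Tumors of one site also differed among themselves. Set against each gene's own mean over the 6 arrays, duodenal tumor 2 was below the mean for all 8 tested members, with a median deviation of -0.26 on the log2 scale. It held the lowest value of 4 of them, Cdh5, Flt1 (tied with cecal tumor 3), Vwf and Nrp1. Cecal tumor 1 held the highest value of 4 members (Flt1, Vwf, Cd34 and Nrp1), with a median deviation of 0.26. Cecal tumor 2 was above the mean for 7 of 8, and cecal tumor 3 for 3 of 8, so the cecal tumors did not move as a block. The medians for duodenal tumors 1 and 3 were 0.02 and -0.0015, and those for cecal tumors 2 and 3 were 0.16 and -0.11. Array medians were highest in duodenal tumor 2 (181.8) and lowest in cecal tumor 1 (164.4), the reverse of the member deviations in these tumors. The part of array brightness in the deviations was not tested.

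**Figure D3:**
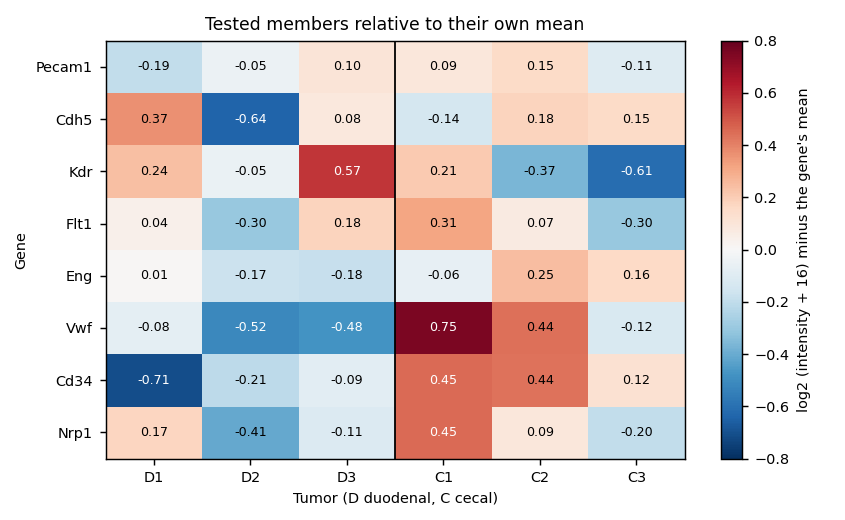
Log2(intensity + 16) of the 8 tested members minus the gene's mean over the 6 arrays, printed in each cell (columns D1 to D3 duodenal and C1 to C3 cecal tumors; red above and blue below the mean). Column D2 is below the mean for all 8 genes, and the highest deviation is that of Vwf in C1 (0.75).

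Other genes of the vessel lining gave differences of both signs. Of 10 endothelial markers that are not members, 8 were on the array, and their summed intensity was 1438.9 to 1882.1 in duodenal tumors and 1524.1 to 1662.1 in cecal tumors, with overlap. Of 6 tested 0 passed in limma (2 at an unadjusted p under 0.05, Esam and Clec14a). Cldn5, the endothelial claudin, and Icam2 were at or under the 40th percentile on every array, while Plvap, of the diaphragms of fenestrated capillaries, gave 480.9 to 670.4 in duodenal tumors and 487.1 to 682.5 in cecal tumors. In the wider list of 24 other pan-endothelial genes, 15 were tested, 1 was lower in cecal tumors and 0 higher, with 8 positive differences and a median of 0.05.

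The gene that was lower was Aqp1, a water channel of endothelial and other cells, with 1208, 684.6 and 1372.9 in duodenal tumors and 273.5, 405.1 and 549.9 in cecal ones. The sites did not overlap (log2 difference -1.37, limma adjusted p = 0.0296), but the call was lost without duodenal tumor 1 or 3 or cecal tumor 1 or 2 (adjusted p up to 0.107). Esam, a junction protein, gave 421, 294.7 and 476.7 in duodenal tumors and 227.7, 262.1 and 250.8 in cecal ones (log2 difference -0.63, adjusted p = 0.0827), opposite in sign to Vwf and Cd34. Caveolin-1 (Cav1) gave 357.9, 207.4 and 269.3 against 616, 449.2 and 390.8 (log2 difference 0.78, adjusted p = 0.0809, and 0.0230 once the replicate number entered as a block). Clec14a, a vessel lectin, was under the 40th percentile in all duodenal and above it in all cecal ones, and did not pass (limma adjusted p = 0.155). By site means it was at least 1.28-fold higher, and the unadjusted 95% interval of the fitted fold was 1.05 to 1.91.

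Few of the VEGF, angiopoietin and BMP ligands were bright enough to test. The list, to which Apln was added, had 11 ligands on the array, and 6 were at or under the 40th percentile on every array. The 3 tested were Vegfa, Vegfb and Apln, and 0 passed in limma (0 at an unadjusted p under 0.05). No angiopoietin or BMP ligand was tested. Vegfa gave 668.3, 407.4 and 497 in duodenal tumors and 429.3, 508.4 and 350.9 in cecal ones (log2 difference -0.26, adjusted p = 0.510), and its second tested probe set had the opposite sign (0.14, adjusted p = 0.751). Vegfb had a log2 difference of -0.27 (adjusted p = 0.498). Apln, the ligand of the apelin receptor, had one of 0.32 (adjusted p = 0.355). Angpt2, an antagonist or partial agonist of TEK, was above the percentile only in cecal tumor 1 (117.2), and Angpt1, the TEK agonist, ran from 2.9 to 7.2.

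Among 4 tested class 3 semaphorins, which bind neuropilins and plexins, 1 was higher and 1 lower in cecal tumors. Sema3c gave 149.3, 224.6 and 182.8 in duodenal tumors and 387.7, 588 and 422.3 in cecal ones (log2 difference 1.25, limma adjusted p = 0.0084), and it passed under all 16 alternatives. Sema3f gave 599.7, 750.9 and 725.8 against 189, 378.9 and 327.4 (log2 difference -1.22, adjusted p = 0.0178). Neither gene had sites that overlapped. The call of Sema3f was lost without duodenal tumor 2 or 3 (adjusted p up to 0.0648), and its second probe set had a log2 difference of -1.45 (adjusted p = 0.0595). Sema3b and Sema3e had log2 differences of -0.47 (adjusted p = 0.114) and -0.19 (adjusted p = 0.681).

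Of 12 tested other vascular receptors and their partners, 1 was higher in cecal tumors and 0 lower (median log2 difference 0.22). Efnb2, the arterial ephrin and ligand of EPHB4, gave 527.6, 615.9 and 387.3 in duodenal tumors and 1164.3, 898.8 and 977 in cecal ones (log2 difference 0.98, limma adjusted p = 0.0157). Of its 3 further tested probe sets, all with positive differences (0.58 to 0.81), 1 passed, and the call was lost without cecal tumor 1 (adjusted p = 0.0722). Notch1 and Aplnr, the apelin receptor, had log2 differences of -0.47 (adjusted p = 0.106) and -0.45 (adjusted p = 0.145), and Nrp2, the second neuropilin, one of 0.43 (adjusted p = 0.238). In the leukocyte adhesion list 0 of 3 tested genes passed in limma (0 at an unadjusted p under 0.05), with log2 differences of 0.31 for Ackr1, 0.13 for Icam1 and -0.04 for Vcam1.

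Of 13 tested transcription factors used in endothelium, 10 did not pass, 1 was higher and 2 were lower in cecal tumors (median log2 difference -0.06). Epas1, which encodes the hypoxia factor HIF-2 alpha, gave 152.3, 146.4 and 191.9 in duodenal tumors and 293.9, 343.8 and 276.7 in cecal ones (log2 difference 0.84, limma adjusted p = 0.0173), a call that ended when duodenal tumor 1 or cecal tumors 1 or 2 were left out (adjusted p up to 0.0866). Hhex, a homeobox factor of endothelium and foregut, was under the 40th percentile in all cecal tumors. By site means its duodenal level was at least 1.88-fold the cecal one (limma adjusted p = 0.0108, and 0.0511 without cecal tumor 2). The unadjusted 95% interval of the fitted cecal level ran from 0.386-fold to 0.667-fold. The Notch target Hey1 had a log2 difference of -0.80 (adjusted p = 0.0412), lost under 7 of 15 alternatives, each single array left out among them (adjusted p up to 0.131). Ets1 had one of 0.56 (limma adjusted p = 0.129) and passed under 2 of 16 alternatives, array weights and the mean of its probe sets. Its other tested probe sets had 0.59 (adjusted p = 0.0789) and 0.55 (adjusted p = 0.0805), the last under the 40th percentile in all duodenal tumors. Erg, Fli1 and Tal1 were under that percentile on every array.

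Of 6 tested oxygen sensing regulators, 2 were higher in cecal tumors and 0 lower. Hif1a, the oxygen-regulated subunit of HIF-1, gave 2301.1, 1842.8 and 1882.6 in duodenal tumors and 6255.5, 4660.1 and 3671 in cecal ones (log2 difference 1.24, limma adjusted p = 0.0068). Its 2 other tested probe sets passed too, with log2 differences of 1.28 and 1.60, and the representative passed under all 16 alternatives. Egln3, a prolyl hydroxylase induced by hypoxia, passed as well (1.01, adjusted p = 0.0074), while its second tested probe set did not (0.65, adjusted p = 0.0648). Egln1 and Egln2 had log2 differences of 0.22 (adjusted p = 0.446) and -0.16 (adjusted p = 0.530).

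Of 10 tested genes of vascular basement membrane and matrix inhibitors, 2 were higher and 0 lower in cecal tumors, with 8 positive differences and a median of 0.37. Thbs2, an inhibitor of angiogenesis, was under the 40th percentile in all duodenal tumors (39.4, 51 and 27.9). It gave 127.8, 139.2 and 149.9 at the cecal site, at least 1.38-fold higher by site means (limma adjusted p = 0.0058). Nid1, a basement membrane linker, gave 389.6, 483.6 and 473.5 against 756.4, 701 and 750.7 (log2 difference 0.70, adjusted p = 0.0157), a call that did not hold when duodenal tumor 1 or cecal tumors 1 or 2 were left out or when its probe sets were averaged (adjusted p up to 0.0730). The second Nid1 probe set had a log2 difference of 0.21 (adjusted p = 0.488). Sparc and Col4a2 had log2 differences of 0.48 (adjusted p = 0.0737) and 0.73 (adjusted p = 0.0858). This list's difference stands beside the fibroblast sums given above, whose part in it was not tested.

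**Figure D4:**
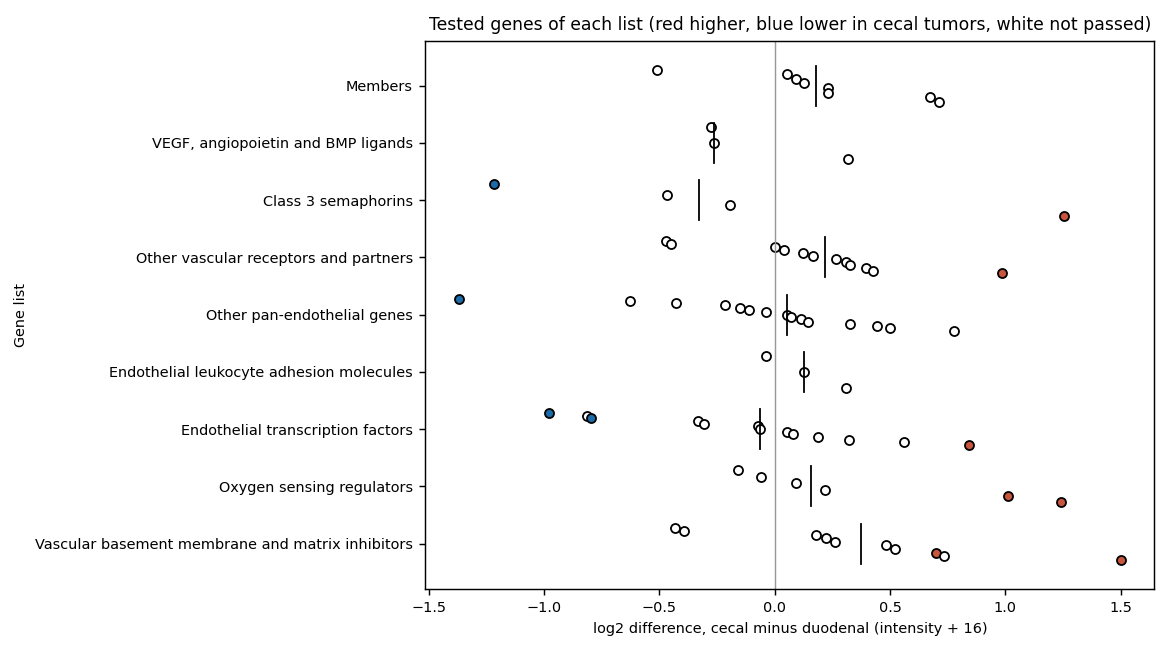
Cecal minus duodenal log2(intensity + 16) difference of each tested gene, 1 row per list, with the 8 tested members on top; red points passed as higher and blue as lower in cecal tumors, white points did not pass, and the black bar is the list's median. No member point is coloured, while 7 red and 4 blue genes lie in the other lists.

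Over all these lists, each gene counted once, 66 genes were tested, 7 were higher and 4 lower in cecal tumors. This is set beside 5.7% of all tested genes that were higher and 4.75% that were lower. The median log2 difference of the 66 was 0.10. The count of 11 became 6 without duodenal tumor 1, 5 without cecal tumor 1, 5 without cecal tumor 2 and 18 with array weights.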

How the data were processed

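Total RNA of 6 mouse tumors, 3 per site, was measured on 1 Affymetrix array each. Per the submitters' processing notes, the deposited intensity values came from MAS5, run by the authors. The software version, scaling target and detection calls were not given in any of these sources. No further background correction or scaling was applied. Groups and replicate numbers were read from the sample titles. Of 22690 probe sets, 64 controls were left out, 20380 had exactly 1 gene name, 691 had several and 1555 had none in the annotation used. A RefSeq gene table (GRCm38.p6) held the gene id of 20351 of the named probe sets and changed 0 symbols.

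Probe sets above the 40th percentile of their array on at least 3 arrays (13866) were transformed as log2(intensity + 16), an offset that understates changes of dim genes. They were fitted together in limma 3.58.1 (R 4.3.3; lmFit, eBayes with an intensity trend). Tests were two-sided at 0.05 after Benjamini-Hochberg adjustment. Where all tumors of a site were at or under that percentile, the fold is a bound: the bright site's mean log2 intensity over the dim site's mean log2 percentile. It bounds the ratio of site means only and makes no allowance for the spread between tumors. The test was checked on simulated data. The members, gene lists and named-gene rule (members in full; per list every gene that passed, filled up to 4 by smallest p; up to 3 brightest of other cell types and any that passed) were chosen with earlier results of these data known.

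Numbers 1 to 3 recur at both sites. Correlations of the deviations from the site means were 0.274, 0.299 and 0.203 for same-numbered tumors and -0.200 to -0.0261 for others. The same-number values meet the bar set for pairing (every same-number correlation over 0.1). Deviations were taken within each site, so positive same-number values by themselves lower the others, which are not separate evidence. The pairing comes from the values only, since no sample title names a shared mouse or batch. The test reported has no block, so its p-values do not use the pairing; the blocked value is given where it changed a call. Alternatives covered the offset (1, 64), the filter (none, 60th percentile), quantile normalization, median centring, no trend, array weights, the mean of a gene's probe sets, the replicate block and leaving out each array. Figures used matplotlib 3.10.9 in Python 3.11.15, with pandas 2.3.3.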

Additional observations from a re-analysis of the deposited data

How the results depend on the processing

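The count of member genes higher in cecal tumors was 0 in the reported test and 0 to 1 with single arrays left out; the 1 was Vwf without cecal tumor 3. It was 1 with array weights, which called Cd34, and 0 under the other 9 alternatives. The count of lower members was 0 under all 16. Only Eng was tested with the 60th percentile filter. With the replicate number as a block, Cav1 and Col4a1 were gained in the related lists (13 called) and no call of a member changed. Probe sets past the threshold numbered 1290, 1571 with the block, 1939 with array weights, and 538 to 1040 with single arrays left out. Called genes of the related lists numbered 11, 18 with array weights, 7 of 32 tested with the 60th percentile filter, and 5 to 9 with single arrays left out. The sign of Cdh5 turned with array weights (log2 difference -0.0081) and without duodenal tumor 2; single arrays left out gave -0.16 to 0.34. That of Flt1 turned with the mean of its probe sets (-0.0276) and without duodenal tumor 2 or cecal tumor 1; single arrays left out gave -0.0875 to 0.22. None of these 5 values passed, and the cause was not tested. Vwf, Cd34, Kdr, Eng, Nrp1 and Pecam1 kept their sign under every alternative that tested them. Tek and Tie1 were left out by the filter on dim probe sets, so their differences were tested only without it. The untested probe sets of Cdh5, Flt1, Eng and Nrp1 were left out by the same filter, and no difference is given for them.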

Other observations

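Other cells of the tumor mass gave these values. Among 8 tested mural genes, of pericytes and smooth muscle, 0 passed in limma (2 at an unadjusted p under 0.05) and 1 had a positive difference. Rgs5, a pericyte marker, gave 1998.7, 1241.7 and 1493.3 in duodenal tumors and 1239.9, 1109.3 and 872.7 in cecal ones (log2 difference -0.54, adjusted p = 0.154), while Pdgfrb gave 348.5, 389.3 and 318.4 against 461, 451.7 and 473.5 (0.38, adjusted p = 0.124; both named after their values were seen). Acta2 and Tagln, of smooth muscle, both had a log2 difference of -0.06. Lymphatic endothelial markers varied between tumors of 1 site: Pdpn gave 171.2, 516.6 and 417.5 in duodenal tumors and 190.4, 636.7 and 576.7 in cecal ones (adjusted p = 0.784), and Prox1 76.2, 253.3 and 242.2 against 45.3, 95.1 and 100.6 (adjusted p = 0.218, and 0.0261 once the replicate number entered as a block). Lyve1 and Reln, also of that list, were not tested.

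Of 6 tested macrophage genes 0 passed (1 at an unadjusted p under 0.05, Cd14) and 5 had a positive difference. Their summed intensity was 4058.6 to 4880.9 in duodenal tumors and 4894.8 to 5433.2 in cecal ones. These ranges nearly met, at duodenal tumor 2 (4880.9) and cecal tumor 1 (4894.8). Of all tested genes, 31.3% had sites that did not overlap. The log2 differences were 0.08 for Csf1r, 0.40 for Cd14 and 0.39 for C1qa. Of 4 tested leukocyte genes 0 passed (1 at an unadjusted p under 0.05, Ptprc), with 0.43 for Ptprc, 0.16 for Cd52 and -0.08 for Laptm5. Mast cell products were uneven between tumors, with Mcpt1 at 373.8, 3924.5 and 275.8 in duodenal tumors and 3753.1, 3432.9 and 1065.8 in cecal ones. The log2 difference was 1.66 for Mcpt1, -0.44 for Mcpt2 and 0.04 for Cpa3. The red cell genes Hba-a1 and Alas2 were under the 40th percentile on every array. Of 6 epithelial genes 1 passed: Vil1, the villus actin binder, with a log2 difference of 0.58 (adjusted p = 0.0264; up to 0.107 with single arrays left out, where every array except duodenal tumor 3 ended the call), while Krt8, Krt19 and Krt18 had 0.21, 0.13 and -0.14.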
